A study of Homo sapiens with 48 samples.

Results

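UPF1 transgenes of different kinds were compared in human cells whose own UPF1 was targeted by siRNA: a mutant labelled FE-ER and wild-type UPF1 (WT). The comparison used 6 of the 48 RNA-seq libraries of the series, 3 FE-ER and 3 WT, all taken from the siUPF1 arm by their labels. Both lines are Flp-In 293 T-REx cells, derived from human embryonic kidney, in which a CLIP-tagged UPF1 coding sequence was stably integrated. Cells received 40 nM siRNA against UPF1 (siUPF1), or a non-targeting siRNA (siNT) in the matching control libraries, and were collected after 72 h. The series also holds lines with the CLIP tag alone (CLIP) and with the mutants F192E, I757R, IR-ER, E797R and LECY. The label FE-ER shares letters with F192E and E797R but is not spelled out in the sources used here. Each protein is represented by 1 line, so an effect of the mutation and a property of the line cannot be told apart. Replicates are called biological in the series' design text, and how they were separated is not stated.

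UPF1 is an ATP-dependent RNA helicase at the core of nonsense-mediated mRNA decay (NMD), the pathway that removes transcripts on which translation ends too early. A stop codon that lies well upstream of an exon-exon junction is a classic trigger, because exon junction complexes remain on the mRNA downstream of it. UPF2 and UPF3B connect these complexes with UPF1, the kinase SMG1 phosphorylates UPF1 under control of SMG8 and SMG9, and SMG5 and SMG6 act with phosphorylated UPF1 to bring about decay. Several of these factors are encoded by mRNAs that NMD itself keeps low, so the pathway reads out on its own components.

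Library depth in the 6 libraries ranged from 6580973 to 9233361 counts. UPF1 reads of the transgene and of the endogenous gene were counted together and therefore do not show the depletion in these lines. The UPF1 level, as counts relative to the scaled library total (CPM), was 4982, 4345 and 4218 in the WT libraries and 4956, 4983 and 4518 in the FE-ER libraries. The groups overlapped, and the log2 difference was 0.09 (SE 0.11, adjusted p = 0.89). In the CLIP line, which has no UPF1 transgene, the mean UPF1 level with siUPF1 was 20.4 CPM, and siUPF1 lowered UPF1 there by a log2 change of -2.37 (SE 0.13, adjusted p = 2.1e-17). Summed markers of 293 cells were 1230 to 1470 CPM in FE-ER and 1250 to 1520 CPM in WT, with 10 of 10 detected in every library. Of 4 hepatocyte markers none was tested, and their sum stayed between 0 and 0.156 CPM in the 6 libraries. Of 6 neural markers, 5 were detected in every FE-ER library and 4 in every WT library, and their sum was 31.7 to 40.7 CPM in FE-ER against 23.9 to 29.5 CPM in WT. SYP averaged 16.94 CPM in FE-ER and 9.644 CPM in WT, and TUBB3 10.03 and 7.821 CPM. MAP2, SNAP25 and RBFOX3 had negative differences, and the median log2 difference over the 5 tested was -0.09. The 13 mitochondrially encoded mRNAs summed to 23100 to 43100 CPM in FE-ER and 28000 to 34500 CPM in WT. The part of these differences in the results below was not tested.

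With siUPF1, 64 genes were higher in FE-ER than in WT and 7 were lower, among 16697 genes tested. That is 0.383% higher, 0.0419% lower and 0.425% in all, at an adjusted p under 0.05 (edgeR quasi-likelihood test, Benjamini-Hochberg over all genes). The higher genes included components of the NMD machinery (SMG1, SMG9 and UPF3B among them), 3 established NMD targets (C6orf48, RP9P and GABARAPL1) and the snoRNA host transcripts SNHG7 and EPB41L4A-AS1. Differences were small. Among the 64 higher genes the log2 difference ran from 0.29 to 0.97 with a median of 0.52. In all 64 genes the 3 FE-ER libraries lay above the 3 WT libraries, an arrangement found in 6.33% of all genes tested. In all 7 lower genes they lay below, against 4.91% of all genes. The genes were called on these same libraries, so both arrangements are largely set by their choice and add no separate evidence. Just inside the threshold were SH3BP2 (log2 difference 0.39, adjusted p = 0.0486), KANSL3 (0.38, 0.0486) and HACD3 (0.29, 0.0492), and just outside were CFAP53 (0.82, 0.0544), TNPO2 (0.30, 0.0578) and AC020928.2 (0.61, 0.0578). Libraries are bulk, so a change in the share of cells and a change in RNA per cell cannot be told apart.

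The number of calls depended on single libraries and on which libraries set the spread. It was 39 without FE-ER replicate 1, 29 without FE-ER replicate 3, 19 without WT replicate 2 and 47 without WT replicate 3. Leaving out the remaining libraries gave 54 (FE-ER replicate 2) and 88 (WT replicate 1). When the spread was estimated from these 6 libraries alone, 9 genes were called, 7 higher and 2 lower, and 5 of them were among the 71: SMG9, PARP6, CERS1, NPIPA1 and LINC02226. Of the 71 genes, 17 were called whichever of the 6 libraries was left out, SMG1, SMG9, PARP6, CERS1, SNHG7, EPB41L4A-AS1 and LINC02226 among them. With the replicate number as a block, 436 genes were called, including all 71.

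**Figure D1:**
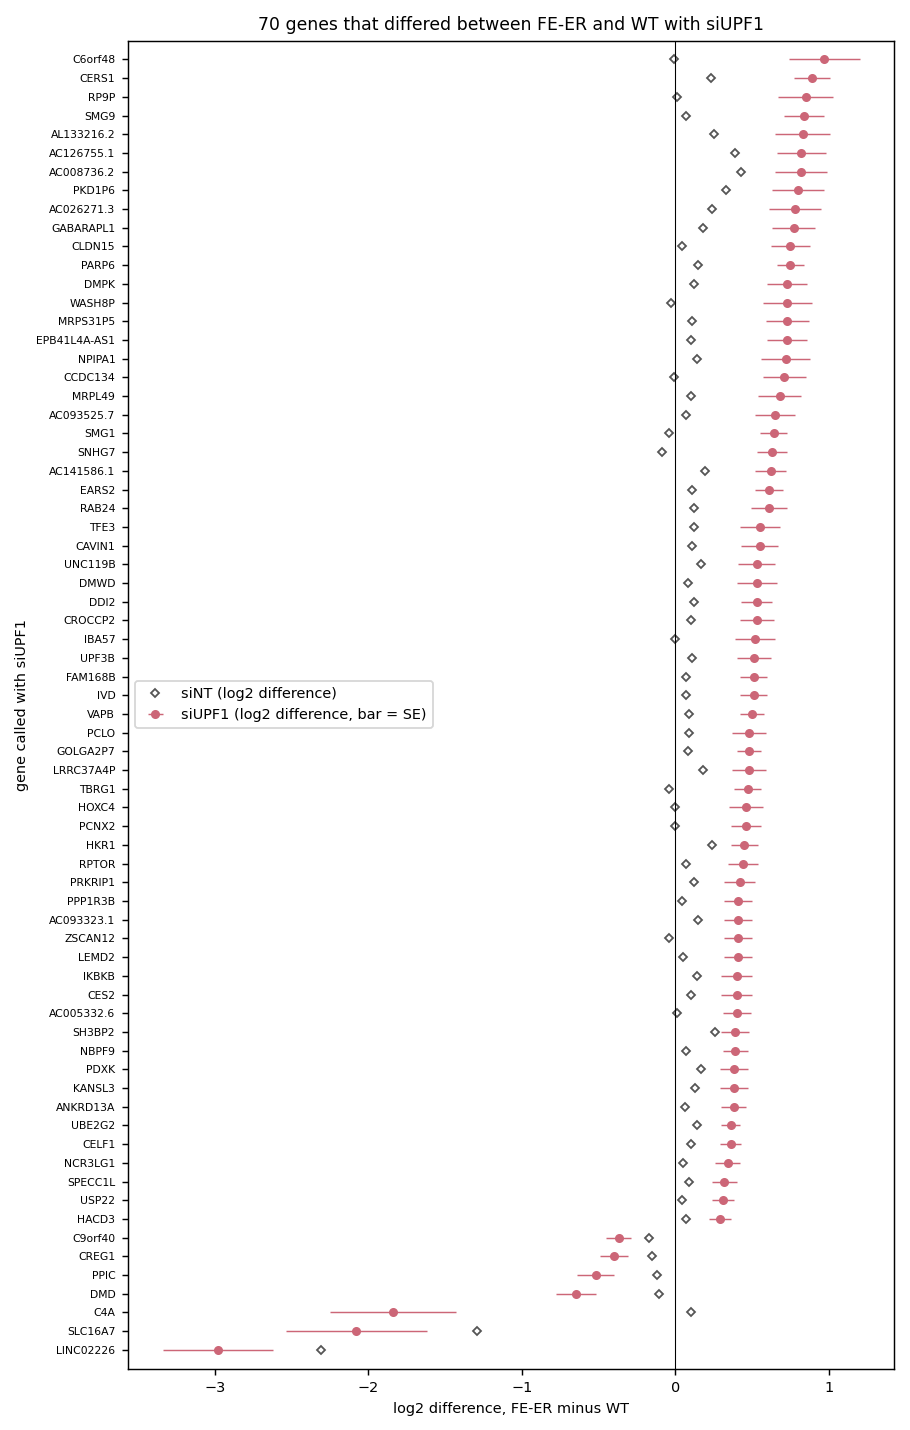
Log2 difference between FE-ER and WT for 70 of the 71 genes called with siUPF1 (filled circles, bars are standard errors) and for the same genes with siNT (open diamonds). Values with siUPF1 run from -2.98 to 0.97; with siNT, the 63 higher genes shown lie between -0.09 and 0.43.

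Among 19 NMD factors tested, 4 were higher in FE-ER (0.383% of all genes were), none was lower, and the median log2 difference was 0.09. The count was 2 without FE-ER replicate 1, FE-ER replicate 3, WT replicate 2 or WT replicate 3. At an unadjusted p under 0.05, 7 were higher and 1 was lower (8.7% of all genes were at that level in either direction), and DESeq2 also called 4 higher and 0 lower (0.886% and 0.234% of the genes to which it gave an adjusted p). The median over all genes tested was 0.00.

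SMG1, the kinase that phosphorylates UPF1, stood at 647, 632 and 579 CPM in the FE-ER libraries and at 400.3, 429.5 and 363 CPM in the WT libraries. Every FE-ER library was above every WT library. The means were 619 ± 35.9 and 398 ± 33.4 CPM (SD, n = 3), a log2 difference of 0.64 (SE 0.09, adjusted p = 2.94e-05). Estimated from these 6 libraries alone, the adjusted p of SMG1 was 0.061, and over all alternative analyses it ran from 1.12e-09 to 0.061.

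SMG9, a partner of SMG1 in the kinase complex, was at 110.3, 123 and 109 CPM in FE-ER and at 72.8, 64.4 and 55.0 CPM in WT. The groups were far apart relative to their spread, and the log2 difference of 0.84 (SE 0.13, adjusted p = 0.000176) was the largest of any NMD factor tested. With siNT, both lines had more SMG9 than WT had with siUPF1, at 84.4 ± 5.37 CPM in WT and 89.0 ± 10.2 CPM in FE-ER. SMG9 was lower with siUPF1 than with siNT in WT (log2 change -0.40, adjusted p = 0.0265) and higher in FE-ER (0.36, adjusted p = 0.0346).

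UPF3B, which links exon junction complexes to the UPF proteins, measured 115, 112 and 133 CPM in FE-ER and 88.9, 81.1 and 83.2 CPM in WT. The groups did not overlap, and the log2 difference was 0.51 (SE 0.11, adjusted p = 0.02). Its call was lost without FE-ER replicate 1 (adjusted p = 0.058), FE-ER replicate 3 (0.207), WT replicate 2 (0.195) or WT replicate 3 (0.0909). Over all alternatives its adjusted p ran from 0.00124 to 0.207.

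Several NMD factors did not pass the test without a replicate block. With the block, 6 of the 19 were called higher and 1 lower (436 of the 16697 genes tested were called in either direction). UPF2 (adjusted p = 0.00726), SMG6 (0.0329) and RUVBL1 (0.0418, lower) were among them. The values that follow are without the block. UPF2, the bridge between UPF1 and UPF3 proteins, was at 133, 135 and 139 CPM in FE-ER and 112.5, 114 and 93.9 CPM in WT (log2 difference 0.35, adjusted p = 0.368), with no overlap between the libraries. UPF3A, the paralogue of UPF3B, overlapped between the groups (0.21, adjusted p = 0.509). SMG6, the endonuclease, had a difference of 0.30 (adjusted p = 0.318) and SMG5 one of 0.20 (adjusted p = 0.751). SMG8 (-0.14) and the AAA ATPases RUVBL1 (-0.24) and RUVBL2 (-0.03) had negative values. Among 12 exon junction complex genes none passed, the median was -0.02, and 0 had an unadjusted p under 0.05.

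GENCODE 29 lists transcripts with an NMD annotation for 28 of the 48 protein-coding genes that were higher in FE-ER (58.3%), against 42.7% of all coding genes tested. Such transcripts end translation upstream of an exon-exon junction. The stretches around their annotated stop codons are shown for 5 higher genes, to locate these stops, each as 30 bases 5′ to 3′ with the stop codon in capitals (hg38, GENCODE 29 transcripts). In 4 of the 5 the junctions lie beyond the stretch shown, and in PARP6 the next one is 14 bases after the stop.
SMG1: ggccatggtcatTAGaacttttttctatac
GABARAPL1: gcctcctcgtgtTGAtttctgatcacctgg
PARP6: gatacaacaggaTGAataccatcccccaga
TFE3: gcaggagaggcgTGAgcgtcgggaacaggc
VAPB: aatgtatctgcaTGAtgtagaaataaataa
In the SMG1 transcript the stop codon lies at chr16:18868347-18868349 on the minus strand, with 1 junction, 157 bases further on. In GABARAPL1 it lies at chr12:10213875-10213877 on the plus strand and is followed by 4 junctions, the last 619 bases away. In PARP6 it lies at chr15:72242634-72242636 on the minus strand with 3 junctions after it, the last 163 bases away. In TFE3 it lies at chrX:49039246-49039248 on the minus strand with 7 junctions after it, the last 889 bases away. In VAPB it lies at chr20:58440909-58440911 on the plus strand with 1 junction, 172 bases further on. The values here are sums over all transcripts of a gene and do not say from which transcript the reads came.

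Of 45 established NMD targets, genes whose mRNAs are widely used as readouts of the pathway, 3 were higher in FE-ER and none was lower. Over all genes tested, 0.383% were higher and 0.0419% lower. The median log2 difference was 0.18, and 32 of the 45 were positive (71.1%), beside 49.9% of all genes tested. The median was 0.111 without FE-ER replicate 1 and 0.117 without WT replicate 3, and the count was 1 without FE-ER replicate 1 or 3 and 0 without WT replicate 2. At an unadjusted p under 0.05, 9 were higher and 0 lower, beside 8.7% of all genes in either direction. DESeq2 called the same number as edgeR, 3 higher and 0 lower (0.886% and 0.234% of the genes to which it gave an adjusted p). With siNT, the same list had a median of -0.01 with 17 genes positive (49.4% of all genes were). In the CLIP line, 30 of the 45 were called higher and 4 lower with siUPF1 than with siNT. Over all 16697 genes tested these counts were 3017 and 2605. Not every listed gene therefore rose when UPF1 was depleted in these cells.

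C6orf48, a host of small nucleolar RNAs whose spliced transcript is short-lived, had the largest positive difference of any called gene. Its libraries read 50.6, 38.4 and 57.6 CPM in FE-ER and 22.6, 21.6 and 30.3 CPM in WT, for a log2 difference of 0.97 (SE 0.23, adjusted p = 0.0417). FE-ER replicate 2 was the lowest of its group and still above all WT libraries. RP9P, a transcribed pseudogene of RP9, read 14.9, 9.43 and 17.3 CPM against 7.99, 6.58 and 8.48 CPM (0.85, SE 0.18, adjusted p = 0.0171). Here too FE-ER replicate 2 lay closest to WT.

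GABARAPL1, an ATG8-family protein of autophagosomes, read 75.4, 56.2 and 74.7 CPM in FE-ER and 40.0, 35.2 and 45.9 CPM in WT (0.77, SE 0.14, adjusted p = 0.0023). Its call was lost without WT replicate 2 (adjusted p = 0.0643). Leaving out FE-ER replicate 1, FE-ER replicate 3 or WT replicate 2 ended the calls of C6orf48 (0.156, 0.285 and 0.272) and RP9P (0.0951, 0.252 and 0.195), and C6orf48 was also lost without WT replicate 1 (0.143).

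Other members of the list did not pass the test without a replicate block. With the block, 5 of the 45 were called higher and 0 lower, ZFAS1 (adjusted p = 0.00299) among them. Over all genes the block gave 436 calls. The values that follow are without it. TSC22D3, a glucocorticoid-responsive gene, had a difference of 0.77 with an SE of 0.52 (adjusted p = 0.743), and ZFAS1, another snoRNA host, had 0.71 (SE 0.21, adjusted p = 0.154). The stress genes ATF3 (0.62), ATF4 (0.21), DDIT3 (0.25) and PPP1R15A (0.21) were positive with adjusted p-values from 0.623 to 0.909. GAS5, the classic snoRNA host studied in NMD, had 0.18 (adjusted p = 0.823). SR protein genes with poison exons were slightly negative, with -0.21 for SRSF2, -0.15 for SRSF6 and -0.10 for SRSF3, none of which passed.

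Host genes of small nucleolar RNAs carry their cargo in introns, and their spliced RNAs are often degraded through NMD. Of 29 tested, 3 were higher (C6orf48, SNHG7 and EPB41L4A-AS1), beside 0.383% of all genes, none was lower, and the median was 0.12. Leaving out 1 library gave 2 to 4 higher, and 1 lower without WT replicate 3. SNHG7 read 47.4, 55.6 and 52.0 CPM in FE-ER and 32.5, 33.2 and 34.3 CPM in WT (0.63, SE 0.10, adjusted p = 0.000819). EPB41L4A-AS1 read 55.7, 46.1 and 54.9 CPM against 29.4, 29.9 and 35.1 CPM (0.73, SE 0.13, adjusted p = 0.00281). In both the groups were well apart. SNHG6 (0.79, adjusted p = 0.0578) and SNHG5 (0.50, adjusted p = 0.306) did not pass, and NOP56, a snoRNP protein gene that also hosts snoRNAs, had -0.33 (adjusted p = 0.0804). With the replicate number as a block, 7 hosts were called higher and 1 lower (436 of all genes tested were called in either direction). SNHG6 (adjusted p = 0.00225), SNHG5 (0.00971) and NOP56 (0.00188, lower) were among them. Several hosts had values near 0, such as SNHG1 (0.01), SNHG12 (0.02) and SNHG16 (-0.03).

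**Figure D2:**
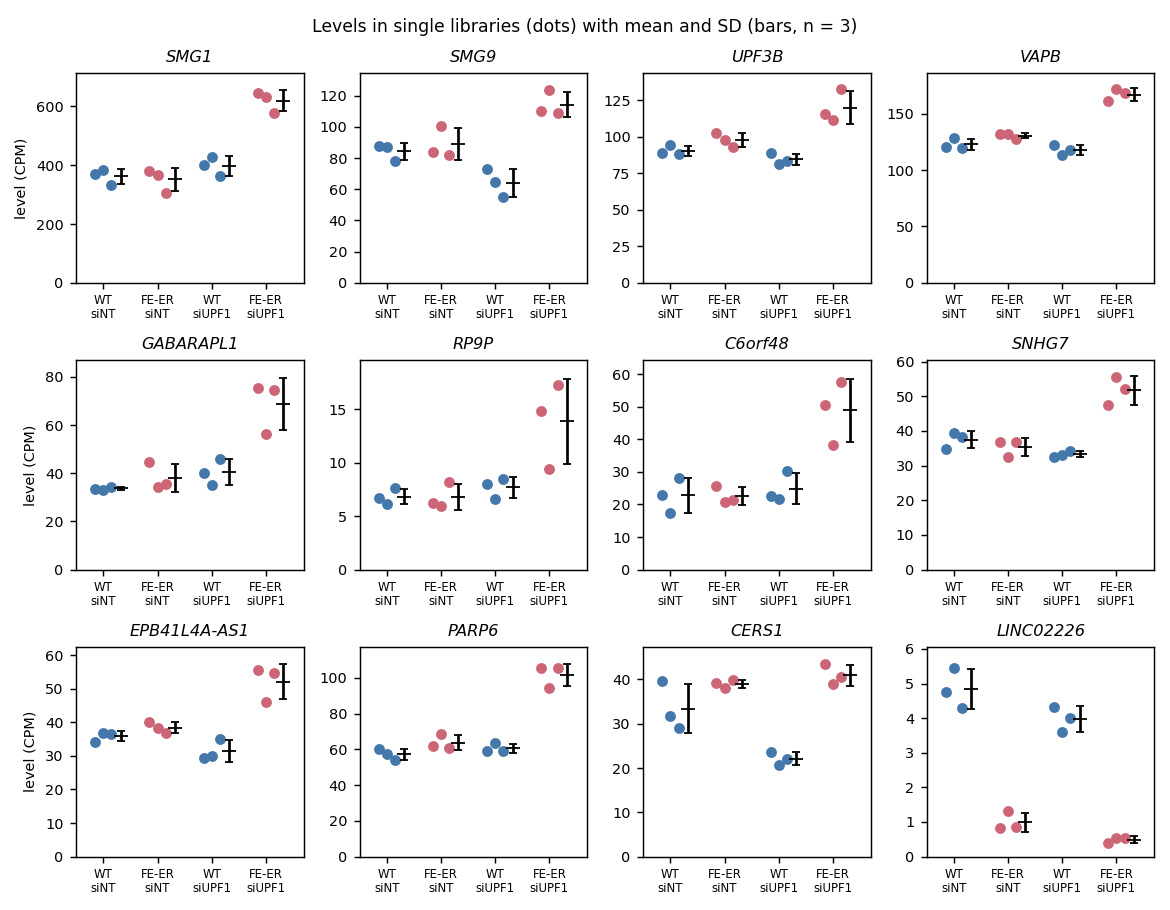
Levels in CPM in every WT (blue) and FE-ER (red) library with siNT and siUPF1 for 12 genes, with mean and SD (n = 3). In the first 11 genes the 3 FE-ER libraries with siUPF1 lie above the 3 WT libraries with siUPF1; LINC02226 is low in FE-ER with both siRNAs.

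Outside these lists, PARP6, an ADP-ribosyltransferase gene, had the second smallest p of all genes. It read 105, 94.3 and 105 CPM in FE-ER and 59.2, 63.4 and 59.0 CPM in WT (0.75, SE 0.09, adjusted p = 1.02e-05). CERS1, a ceramide synthase gene, read 43.5, 38.9 and 40.5 CPM in FE-ER and 23.6, 20.7 and 22.0 CPM in WT (0.89, SE 0.12, adjusted p = 1.46e-05). The CERS1 pattern was unlike that of PARP6. In WT its level was lower with siUPF1 than with siNT (log2 change -0.59, adjusted p = 0.000345), and in FE-ER it was nearly level (0.07, adjusted p = 0.724). CERS1 lies 308 bases from UPF1 on the opposite strand of chromosome 19, and whether the counting used strand is not given in the sources used here.

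CLDN15, a tight-junction claudin, read 28.9, 26.5 and 27.1 CPM in FE-ER and 21.1, 14.7 and 13.2 CPM in WT (0.75, SE 0.13, adjusted p = 0.00114). VAPB, a tether of the endoplasmic reticulum, read 161, 172 and 168 CPM against 122, 113 and 118 CPM (0.50, SE 0.08, adjusted p = 0.000176). EARS2, the mitochondrial glutamyl-tRNA synthetase, read 78.6, 94.2 and 87.5 CPM against 60.0, 55.4 and 55.0 CPM (0.61, SE 0.09, adjusted p = 8.9e-05). In all 3 genes the lowest FE-ER library was above the highest WT library. TFE3, a transcription factor of lysosomal and autophagy genes, read 71.3, 61.2 and 52.4 CPM against 46.5, 40.7 and 38.8 CPM (0.55, SE 0.13, adjusted p = 0.0486), close to the threshold. Its call was lost without FE-ER replicate 1 (0.366) or 2 (0.0981), or WT replicate 2 (0.27) or 3 (0.194).

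DMPK, the kinase gene of myotonic dystrophy, and its neighbour DMWD lie 394 bases apart on the same strand of chromosome 19 and were both higher, by 0.73 (SE 0.13, adjusted p = 0.00204) and 0.53 (SE 0.13, adjusted p = 0.0407). Reads of such neighbours may not be cleanly divided. Further higher genes were RPTOR, a subunit of the mTORC1 kinase complex (0.44, adjusted p = 0.0345), MRPL49 of the mitochondrial ribosome (0.68, adjusted p = 0.00893), CELF1, an RNA-binding regulator of splicing and decay (0.36, adjusted p = 0.00639), and USP22, a deubiquitinase (0.31, adjusted p = 0.0205). Of the 6 analyses that left out a library, DMWD and RPTOR were called only in that without WT replicate 1. Without WT replicate 2 the calls of DMWD (adjusted p = 0.244), RPTOR (0.27), MRPL49 (0.124), CELF1 (0.125) and USP22 (0.195) were lost. Further losses were MRPL49 without FE-ER replicate 2 (0.0779) or WT replicate 3 (0.103), CELF1 without FE-ER replicate 3 (0.128), and USP22 without FE-ER replicate 1 (0.199), FE-ER replicate 3 (0.0997) or WT replicate 3 (0.182).

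By GENCODE class, 48 of the 64 higher genes were protein coding (75%, beside 79.7% of all genes tested), 10 were pseudogenes (15.6% beside 7.13%) and 6 were other noncoding genes. On chromosome 16 lay 8 of the 64 (12.5% beside 4.93%). Several of those belong to duplicated families with near-identical copies. NPIPA1 read 88.1, 83.9 and 85.3 CPM in FE-ER and 52.2, 46.4 and 57.8 CPM in WT (0.72, SE 0.16, adjusted p = 0.0192), and the pseudogenes PKD1P6 (0.80), AC126755.1 (0.82) and AC141586.1 (0.62) were higher as well. Because RSEM divides reads among copies by estimation, which copy was higher is uncertain. NPIPA1 was called only without WT replicate 3 (adjusted p = 0.0409) and PKD1P6 only without WT replicate 1 (0.016) when 1 library was left out. AC126755.1 was lost without FE-ER replicate 1 (0.0533), FE-ER replicate 2 (0.051) or WT replicate 2 (0.195). SMG1 is on the same chromosome and also has near-identical pseudogene copies.

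The 7 lower genes were LINC02226, SLC16A7, C4A, DMD, PPIC, CREG1 and C9orf40. LINC02226, a long noncoding RNA, read 0.387, 0.539 and 0.547 CPM in FE-ER and 4.34, 3.60 and 4.0 CPM in WT, only a few reads per FE-ER library (log2 difference -2.98, SE 0.36, adjusted p = 8.46e-06). It was also low in FE-ER with siNT, at 0.996 ± 0.273 CPM beside 4.84 ± 0.583 CPM in WT (log2 difference -2.31, adjusted p = 0.000131). In the IR-ER line its mean was 0.440 CPM with siUPF1 and 0.548 CPM with siNT, while the other lines had 1.64 to 4.84 CPM.

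SLC16A7, a monocarboxylate transporter, read 0.517, 0.135 and 0.328 CPM against 1.49, 0.940 and 1.82 CPM (-2.08, SE 0.46, adjusted p = 0.0203). C4A, a complement component with the near-identical copy C4B, read 0.646, 0.674 and 0.109 CPM against 1.63, 1.41 and 1.94 CPM (-1.84, SE 0.41, adjusted p = 0.021). Both rest on few reads. The call of SLC16A7 was lost without FE-ER replicate 2 (adjusted p = 0.127), FE-ER replicate 3 (0.115) or WT replicate 3 (0.147), and that of C4A without FE-ER replicate 3 (0.362), WT replicate 2 (0.063) or WT replicate 3 (0.109). DMD, the dystrophin gene, read 11.8, 7.81 and 10.8 CPM against 15.9, 16.9 and 15 CPM (-0.65, SE 0.13, adjusted p = 0.0136). PPIC, a cyclophilin, read 31.6, 36.5 and 33.2 CPM against 49.3, 50.3 and 45.7 CPM (-0.52, SE 0.12, adjusted p = 0.0272). CREG1, a lysosomal glycoprotein gene (-0.40, adjusted p = 0.0272), and C9orf40 (-0.37, adjusted p = 0.0242) had the smallest falls. DMD was not called without FE-ER replicate 2 (0.132) or WT replicate 2 (0.127), and PPIC, CREG1 and C9orf40 were not called without WT replicate 2 (0.194, 0.195 and 0.195) or FE-ER replicate 3 (0.139, 0.284 and 0.223). PPIC and C9orf40 were also lost without FE-ER replicate 1 (0.171 and 0.156) or WT replicate 1 (0.0734 and 0.0631), and CREG1 without FE-ER replicate 2 (0.132) or WT replicate 3 (0.0966).

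A set of UPF1-repressed genes was taken from the contrast of the siRNA arms of the CLIP line. The levels of those 6 libraries are not in the comparison of FE-ER with WT, although the filter, scaling and spread of the test came from all 48 libraries. It holds the 1571 genes (9.41% of those tested) that passed the test in CLIP cells and rose 1.5-fold or more from siNT to siUPF1. In the WT line 618 of the 1571 were also called higher with siUPF1 than with siNT (1407 of all 16697 genes tested were). Their median log2 change there was 0.39, beside 0.87 in CLIP, where they were chosen. The name states how the set was chosen, and part of it rose although WT UPF1 was supplied. Of the 64 genes higher in FE-ER, 46 were in this set (71.9%), which is 2.93% of the set. Of the 7 lower genes, 0 were in it. In the CLIP knockdown 62 of the 64 were called higher (18.1% of all genes tested were), in the LECY knockdown 59 (15.8%) and in the F192E knockdown 57 (11.8%). SMG9, CERS1, VAPB and CLDN15 show how members differed there. Their log2 change with siUPF1 in CLIP was 0.58 for SMG9, 0.54 for CERS1, 0.89 for VAPB and 1.36 for CLDN15, and SMG9 and CERS1 were below the 1.5-fold limit of the set.

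Over the whole set the difference between FE-ER and WT with siUPF1 was small and mostly positive. The median was 0.13, and 74.5% of the 1571 genes were positive, beside 47.3% of the other 15126 genes. With siNT the median was 0.04 and 60.2% were positive. The 1447 genes that fell 1.5-fold or more in CLIP (8.67% of those tested) had a median of -0.08 between FE-ER and WT, with 38.4% positive (52.7% with siNT). The mean log2 level over the 1571 genes was 4.66, 4.59 and 4.62 in the FE-ER libraries with siUPF1 and 4.51, 4.40 and 4.44 in the WT libraries. The groups did not overlap, and the means were 4.62 ± 0.0339 and 4.45 ± 0.0541 (SD, n = 3). With siNT they were 4.08 ± 0.0506 and 4.04 ± 0.0549.

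**Figure D3:**
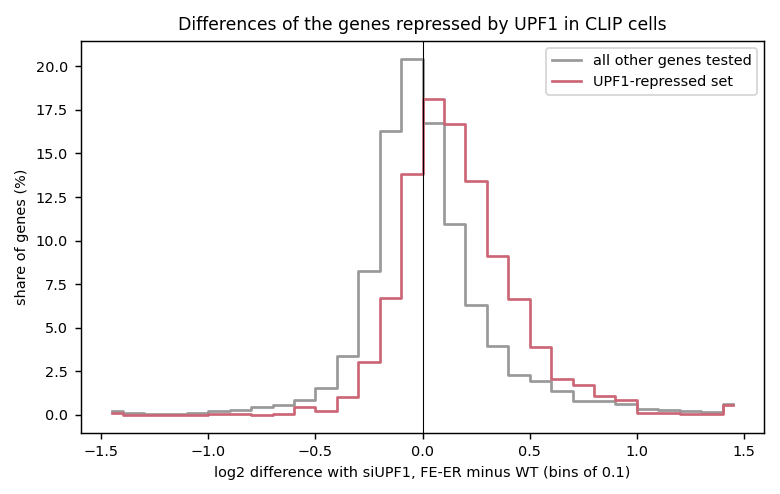
Share of genes by log2 difference between FE-ER and WT with siUPF1, in bins of 0.1, for the UPF1-repressed set of CLIP cells and for all other genes tested; the outermost bins hold everything beyond them. The set, with 74.5% of its genes positive, lies to the right of the other genes.

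With siNT, where endogenous UPF1 was not targeted, 1 gene differed between FE-ER and WT, LINC02226 (0.00599% of genes tested; DESeq2 also called 1, and 393 genes had an unadjusted p under 0.05). Of the 64 genes higher with siUPF1, 0 were called with siNT and 6 had an unadjusted p under 0.05, all higher (2.35% of all genes tested were at that level in either direction). Their median log2 difference with siNT was 0.10 with 55 of 64 positive. In 11 of the 64 the FE-ER libraries all lay above the WT libraries, beside 3.55% of all genes tested.

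The difference between the 2 siRNA arms was tested for each gene as an interaction. SMG1 was the 1 gene called (0.00599% of genes tested), with a difference of knockdown effects of 0.68 (SE 0.12, adjusted p = 0.0372). With siNT SMG1 read 382, 368 and 306 CPM in FE-ER and 369.9, 382.5 and 334 CPM in WT, and the groups overlapped. From siNT to siUPF1 its log2 change was 0.82 in FE-ER (adjusted p = 4.47e-09) and 0.14 in WT (adjusted p = 0.337). The call was lost when the spread came from these 12 libraries alone (adjusted p = 1). It was also lost in 7 of the 12 analyses that left out a library: FE-ER siUPF1 replicate 1 (adjusted p = 0.211) or 2 (0.131), WT siUPF1 replicate 1 (0.0579) or 3 (0.349), FE-ER siNT replicate 3 (0.268), and WT siNT replicate 1 (0.14) or 2 (0.294). All 64 genes had a positive difference of knockdown effects, which is partly set by their choice, with a median of 0.43. Apart from SMG1 the test without a replicate block did not show, after adjustment, that their difference with siUPF1 was larger than with siNT. At an unadjusted p under 0.05 in that test, 56 of the 64 had a positive difference of knockdown effects. Their choice partly sets this count too, and that level was not counted over all genes. With the replicate number as a block, 5 genes were called, all among the 64: SMG1 (adjusted p = 1.55e-05), SMG9 (0.000238), SNHG7 (0.00245), FAM168B (0.0194) and PARP6 (0.0277).

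FE-ER was compared directly with the 2 single mutants whose letters its label shares. Against F192E with siUPF1, 2 genes were higher in FE-ER and 13 lower (0.012% and 0.0779% of genes tested, 0.0898% in all). UPF3B was the 1 gene of the 64 that was called. It was lower in FE-ER, with means of 119.9 ± 11.2 CPM in FE-ER and 179 CPM in F192E (log2 difference -0.58, adjusted p = 0.00884). The 64 had a median of -0.08, and 52 were negative, beside 8118 of the 16697 genes tested. At an unadjusted p under 0.05, 17 of the 64 were lower in FE-ER, a level not counted over all genes here. GXYLT1, a xylosyltransferase gene, had the smallest p of that comparison, at 125 CPM in FE-ER and 223 CPM in F192E (-0.83, adjusted p = 6.4e-05). ATG12, an autophagy conjugation protein gene, was lower by -0.61 (adjusted p = 0.00279) and the long noncoding RNA LINC00632 was higher by 1.53 (adjusted p = 0.000712). The count of 15 became 6, 9 and 8 without FE-ER replicate 1, 2 or 3, and 11, 7 and 9 without F192E replicate 1, 2 or 3, and 3 when only these groups set the spread.

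Against E797R with siUPF1, 126 genes were higher in FE-ER and 20 lower (0.755% and 0.12%, 0.874% in all). Of the 64 genes, 39 were higher in FE-ER than in E797R and none was lower. UPF3B led this comparison, at 119.9 ± 11.2 CPM in FE-ER and 52.3 CPM in E797R (1.2, adjusted p = 7.77e-09). With siNT it already stood at 97.7 ± 4.63 CPM in FE-ER and 59.6 ± 7.29 CPM in E797R (SD, n = 3), and those libraries did not overlap. SMG1 followed the same direction (619 beside 376 CPM, 0.72, adjusted p = 2.38e-06), as did GABARAPL1 (0.84, adjusted p = 0.000355), SNHG7 (0.62, adjusted p = 0.000492) and SMG9 (0.74, adjusted p = 0.000612). The count of 146 became 86, 91 and 88 without FE-ER replicate 1, 2 or 3, and 76, 99 and 88 without E797R replicate 1, 2 or 3, and 26 when only these groups set the spread. Both single-mutant comparisons share the FE-ER libraries with the comparison against WT.

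Over all 8 lines with siUPF1, the lowest mean level was that of WT for 40 of the 64 genes and that of E797R for 23, and the highest was that of CLIP for 39 and that of LECY for 21. Their median level, as a percentage of that in CLIP, was 51.1% in WT, 52.7% in E797R, 67.6% in I757R, 68.0% in IR-ER, 76.1% in FE-ER, 82.3% in F192E and 98.1% in LECY. The genes were chosen as higher in FE-ER than in WT, which fixes that side and favours WT as the lowest line. FE-ER was below CLIP for 62 of the 64 (7711 of all 16697 genes tested had a negative difference). Called lower in FE-ER than in CLIP were 37 (4.3% of all genes tested were). Against WT, the median log2 difference over the 64 was 0.05 in E797R, 0.27 in I757R, 0.37 in IR-ER, 0.52 in FE-ER, 0.61 in F192E, 0.92 in LECY and 0.97 in CLIP. All 7 values share the WT libraries, and the genes were chosen for the FE-ER value.

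As a single gene, SMG1 had mean levels of 376 CPM in E797R, 398 in WT, 592 in IR-ER, 603 in I757R, 619 in FE-ER, 739.8 in F192E, 981.5 in CLIP and 998 in LECY. Unlike in the order of the medians, E797R was below WT, IR-ER below I757R and CLIP below LECY. The SMG1 libraries of IR-ER, I757R and FE-ER overlapped. SMG1 was not called between FE-ER and F192E (-0.26, adjusted p = 0.953), although its unadjusted p in that test was 0.00502. GABARAPL1 had 38.3 CPM in E797R, 40.4 in WT, 48.8 in I757R, 53.7 in IR-ER, 68.8 in FE-ER, 85.0 in F192E, 115.5 in CLIP and 119 in LECY. The mean log2 level of the UPF1-repressed set was 4.45 in WT, 4.46 in E797R, 4.58 in I757R, 4.59 in IR-ER, 4.62 in FE-ER, 4.68 in F192E, 4.90 in LECY and 4.96 in CLIP. The SDs were 0.0365 for I757R, 0.0466 for IR-ER and 0.0339 for FE-ER. The libraries of these 3 lines overlapped, at 4.53 to 4.60, 4.53 to 4.62 and 4.59 to 4.66.

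**Figure D4:**
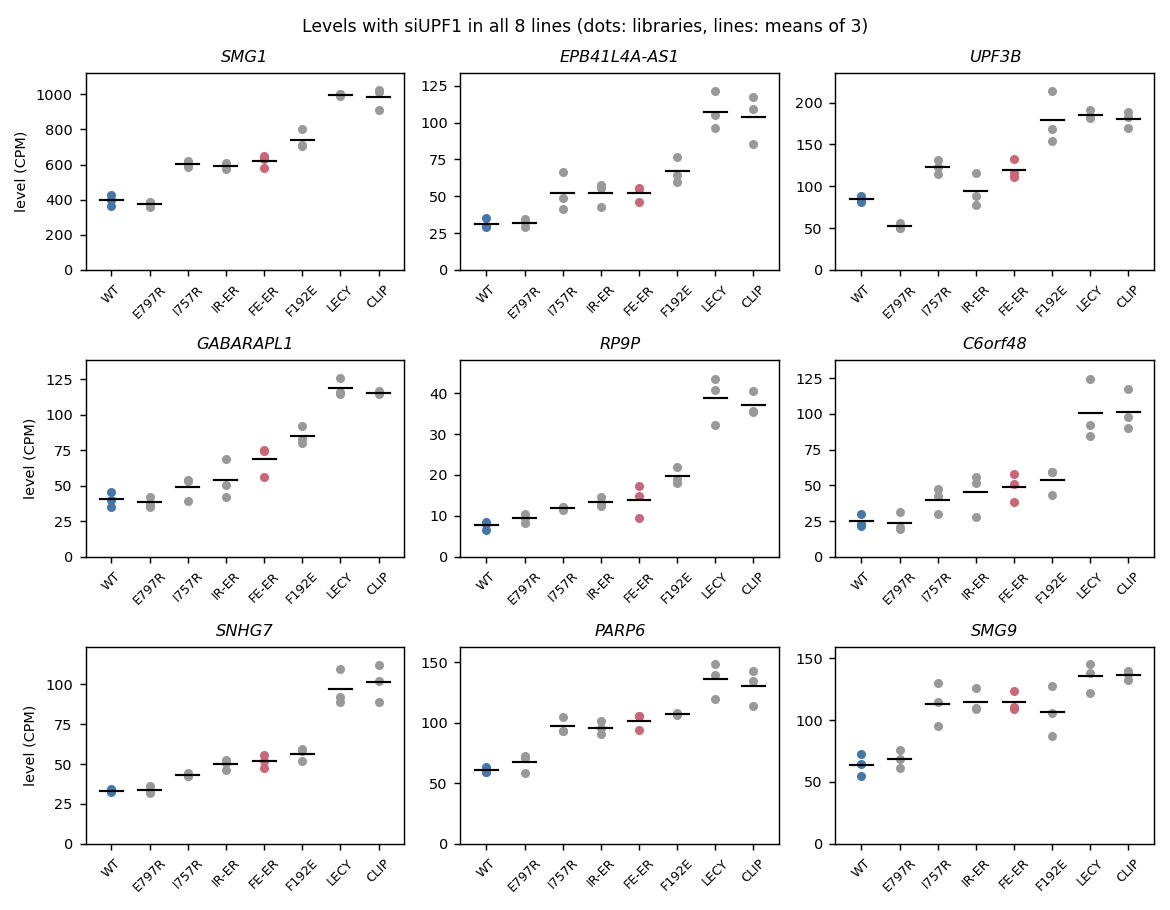
Levels in CPM with siUPF1 in the 8 lines for 9 genes higher in FE-ER (red) than in WT (blue); dots are libraries and lines are means of 3. FE-ER lies above WT and below CLIP in each gene, as SMG1 shows with means of 398, 619 and 981.5 CPM.

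**Figure D5:**
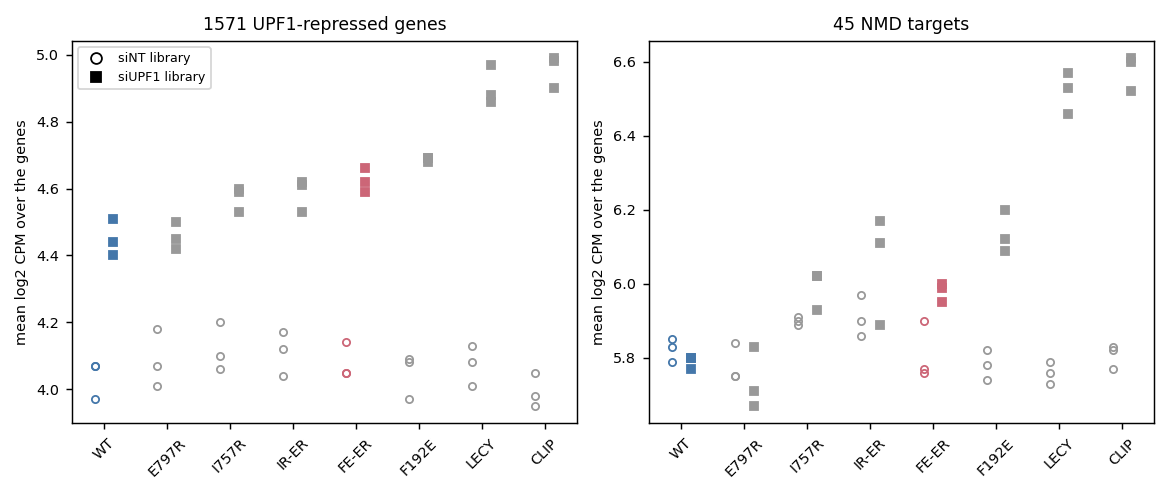
Mean log2 CPM over the 1571 UPF1-repressed genes (left) and over 45 NMD targets (right) in each library, with siNT (circles) and siUPF1 (squares). With siUPF1 the FE-ER libraries of the left panel lie at 4.59 to 4.66, above the WT libraries at 4.40 to 4.51.

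Of 25 gene lists, 22 held no gene that passed, 1 of them without a tested member, among 441 distinct genes tested. In those 22 lists 38 of 443 memberships (8.58%) had an unadjusted p under 0.05, beside 8.7% of all genes, and DESeq2 called 1. With the replicate block, members of some of these lists were called, such as CDC20 (lower, adjusted p = 0.0154) and DDB2 of the p53 targets (higher, 0.0165). Integrated stress response genes, which include ATF4 and its targets, had a median of 0.01 with 20 of 35 positive. Unfolded protein response genes had -0.14 with 4 of 21 positive. Targets of p53 had 0.16 with 21 of 24 positive, and 0.13 with siNT. Cell division genes had -0.16 with 1 of 25 positive, CDC20 reading 61.3, 53.9 and 47.8 CPM in FE-ER and 86.2, 74.9 and 55.4 CPM in WT (-0.41, adjusted p = 0.299), with overlap. Replication-dependent histone genes, whose mRNAs UPF1 also helps to degrade, had a median of -0.31 with 4 of 41 positive, and -0.22 with siNT. Genes of other UPF1-dependent decay pathways had -0.02, mRNA decay enzymes -0.08 and translation termination factors -0.17. Cytosolic ribosomal protein genes had -0.04 over 77 genes, and mitochondrially encoded mRNAs 0.14 over 13. MGMT, the gene from which the CLIP tag was engineered, read 17.1, 13.3 and 19 CPM in FE-ER and 21.8, 17.7 and 25.8 CPM in WT (-0.40, adjusted p = 0.559), with overlap.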

How the data were processed

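The deposited table holds RSEM expected counts for 58870 genes in 48 libraries of rRNA-depleted total RNA, and 9.16% of its values are not whole. The authors used cutadapt, STAR, RSEM and DESeq2 with hg38, per the submitters' processing notes, which give no versions or roles. The annotation release and the strand setting are not given in the sources used here. RSEM divides reads shared by near-identical genes by estimation.

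Expected counts were rounded. Genes were kept with edgeR's filterByExpr (minimum count 10), which left 16697. A model with a mean for each of 16 groups was fitted to all 48 libraries by robust quasi-likelihood (edgeR 4.0.16, R 4.3.3) after TMM scaling, and contrasts were tested two-sided with Benjamini-Hochberg adjustment, called under 0.05. SE is the log2 difference divided by the square root of F. Levels are CPM on TMM-scaled totals; scores use a prior count of 2. Alternatives were DESeq2 1.42.0, other normalizations and filters, the compared groups alone, a replicate block and leaving out each library. Same-numbered siUPF1 and siNT libraries correlated at 0.222 to 0.355 in FE-ER and 0.245 to 0.39 in WT (deviations from group means), so the numbers were taken to pair the siRNA arms within these lines. The main model holds no replicate term, so its p-values between the arms and for the interaction ignore this pairing. With the replicate block the UPF1-repressed set of CLIP cells held 1741 genes instead of 1571. With 3 against 3 an exact permutation test cannot go below 0.1, and for UPF1 it gave 0.3. Replicates differed by more than counting noise (chi-square per degree of freedom 4.98 to 12.5).

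The fit was tested on simulated data with changes planted only in well-expressed genes, the same spread for every gene and no shared replicate effect. There it recovered nearly all changes of 2-fold and more and missed many of 1.5-fold, so uncalled small differences are not shown to be absent. Recovery in genes with few reads was not tested. Types and positions come from GENCODE 29, with 16667 tested genes found there by Ensembl ID. The rule for naming genes took UPF1, the 12 largest rises and the falls, the members of each of 25 lists with the smallest p (at most 4 called, else 2), and SMG1, UPF2, UPF3A, UPF3B and MGMT; other genes named were chosen after their values were seen, and 1 called gene is not reported here. The comparison and the lists were chosen with earlier results of these data known.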

Additional observations from a re-analysis of the deposited data

Results flagged for a closer look

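SMG1 had a larger response to siUPF1 in FE-ER than in WT: the difference of the knockdown effects was 0.68 on the log2 scale (edgeR interaction test, adjusted p = 0.0372). Its direction was the same in all 19 alternative analyses, with values from 0.59 to 0.74, and 8 of them did not call it, 7 of which left out 1 library. With the replicate number as a block, which takes account of the pairing of the siRNA arms, its adjusted p was 1.55e-05.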

How the results depend on the processing

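For FE-ER against WT with siUPF1, the 71 calls became 129 with DESeq2 (102 higher, 27 lower, 68 of the 71 among them), 148 without an expression filter (123 and 25, 44 of the 71) and 9 with only the compared groups fitted. Leaving out 1 library gave 19 to 88. With the replicate block there were 436 calls (280 higher, 156 lower), including all 71. Same-numbered FE-ER and WT libraries correlated at 0.087, 0.276 and 0.258. Because 1 of these values was low, the numbers were not taken to pair the lines, although each library correlated best with its own number. Whether they pair the lines was not settled, and the count of calls depends on it. With siNT the 1 call became 30 without a filter and 0 with only those groups. Leaving out 1 library gave 1. The interaction count of 1 became 26 without a filter, 0 with only those groups, 5 with the block and 0 to 2 with 1 library left out. Against F192E the 15 became 31 (DESeq2), 66 (no filter), 3 (only those groups), 49 (block) and 6 to 11 (1 library left out). Against E797R the 146 became 226 with DESeq2 (193 higher, 33 lower), 26 with only those groups, 605 with the block and 76 to 99 with 1 library left out. The median over the UPF1-repressed set was 0.094 to 0.182 with 1 library left out and 0.239 for the set cut at 2-fold. Over the NMD targets it was 0.111 to 0.184. The block, added for the siRNA arms after the data were seen, changed no call of SMG1, SMG9, CERS1 or UPF1 between the arms. No called gene chosen by the rule for naming genes changed sign, and the signs of the other called genes were not followed. Apart from the smaller number of libraries or the change of genes tested that a setting makes by construction, the cause was not tested. Depth limits LINC02226, SLC16A7 and C4A, which rest on a few reads per library.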
